A study of Mus musculus with 48 samples.

Results

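This comparison sets the skin RNA of 4 mice given Cpd18 beside that of 4 vehicle mice, all from Study 4, and covers 8 of the 48 arrays of the series. The arrays were chosen by their sample labels alone, with 1 array per mouse, and no measured value entered the choice. All were C57BL/6 mice labelled as 8 weeks old, and the methods describe males made obese on a high-fat diet. They were dosed by mouth for 14 days with Cpd18, an inhibitor of the triglyceride-forming enzyme DGAT1, or with the methylcellulose vehicle, and dorsal skin was then sampled. No dose is given in the labels, and 30 mg/kg is the default dose of the methods. Cpd18 is a skin-negative compound, one given as causing no sebaceous gland atrophy. The third group of Study 4, 4 mice given the skin-positive Cpd6, shares the vehicle mice and is used here for the shared estimate of spread and for direct comparison. Values are also set beside those of 8 Study 1 mice given Cpd1, another skin-negative compound, and of the vehicle mice of Studies 1 and 2. Fits over Study 1 or over all 48 arrays also take in mice given the skin-positive Cpd2. A whole-skin biopsy mixes epidermis, hair follicles, sebaceous glands, dermis, vessels, muscle and immune cells, and the labels do not say whether the mice of a group shared a cage or litter. The p-values therefore measure the spread between these samples, which may be technical in part.

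Skin holds resident macrophages in the dermis, Langerhans cells in the epidermis, and monocytes that enter from blood. Dermal macrophages are known for clearing debris and for taking up sugar-coated ligands through lectin and scavenger receptors, and many make the complement starter C1q. Interleukin 4 and interleukin 13, acting through STAT6, drive the alternative activation state, for which Retnla, Mrc1 and the lectin Clec10a are classic markers in mice. The factor PU.1 is required for the macrophage lineage. Hair follicles cycle between growth and rest, and the keratins and keratin-associated proteins of the hair shaft are made while a follicle grows.

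Values are base 2 logarithms of the deposited intensities, and 28789 of 38385 probesets passed a filter on low mean intensity. They represent 15320 named genes, and each gene is described by its brightest probeset where no other is named. The array medians of Study 4 ran from 29.01 to 30.78 intensity units, and correlations between its arrays from 0.981 to 0.996. The labelled tissue was checked with the epidermal genes Krt1, Krt10 and Lor, which lay at or above the 99.4th percentile of tested probesets over both groups. Krt5 and Krt14 are not analysed here. The hair and nail keratins set 1 mouse apart in each group, Cpd18 mouse 1 and vehicle mouse 2, with mean levels of 3.65 and 3.63 against 6.44 to 8.62 in the other 6 mice, and the medians of the macrophage, hair, pigment, cornified envelope and S100 genes are also given without them.

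Between Cpd18 and vehicle, limma called 1 probeset at a Benjamini-Hochberg adjusted p under 0.05, which is 0.00347% of those tested. It was that of Retnla, a secreted resistin-like protein, and it was lower with Cpd18. Without the adjustment, 2291 probesets (7.96%) had a p under 0.05, 1136 (3.95%) lower and 1155 (4.01%) higher. The smallest p-values were mostly on the lower side: 22 of the 25 probesets with the smallest p, 44 of the first 50 and 79 of the first 100 were lower with Cpd18. Among the 15320 genes, 785 (5.12%) were lower and 488 (3.19%) higher at an unadjusted p under 0.05. For 393 genes (2.57%) every Cpd18 mouse lay below every vehicle mouse, and for 233 (1.52%) every Cpd18 mouse lay above. The median log2 fold change over all genes was −0.02, with a 5th percentile of −0.35 and a 95th percentile of 0.24. The counts of families below are to be read against these shares. The family lists were written with earlier results of these data known, so their counts are descriptions and no independent test.

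**Figure D1:**
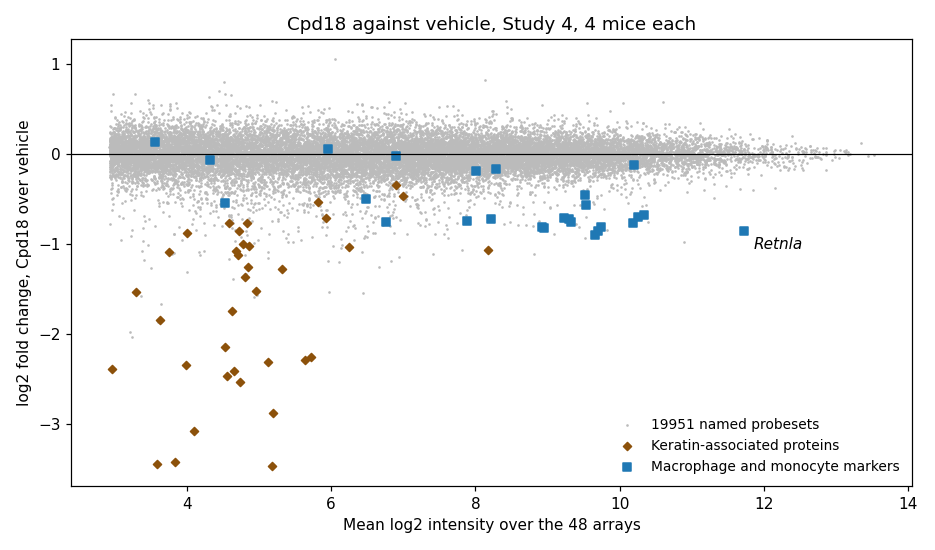
The log2 fold change of Cpd18 over vehicle (4 mice each) is plotted against the mean log2 intensity over the 48 arrays for 19951 named probesets. The macrophage and monocyte markers (squares) lie mostly between −0.90 and −0.45 across a wide range of levels, Retnla among the brightest, and the keratin-associated proteins (diamonds) reach −3.46.

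The log2 intensity of Retnla was 10.94, 10.48, 10.70 and 10.67 in the Cpd18 mice and 11.38, 11.77, 11.65 and 11.40 in the vehicle mice. The groups did not overlap, and Cpd18 mouse 1 was the highest of its group. The log2 fold change was −0.85 (SE 0.11, limma adjusted p = 0.0329), so that the mean intensity with Cpd18 was 55.4% of that with vehicle. Retnla is made by alternatively activated macrophages and by some epithelial cells. In whole skin, fewer cells of a type and less RNA per cell cannot be told apart, here and in every result that follows. The fold change stayed between −0.93 and −0.78 when each mouse was left out in turn. The limma call was lost without Cpd18 mouse 3 (adjusted p = 0.136) or Cpd18 mouse 4 (adjusted p = 0.108), and in 5 other settings given below.

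The start regions of Retnla, C1qc and C1qb are shown, as the 250 bases before the RefSeq start (build GRCm38.p6), 5′ to 3′ on the strand of the gene. That of C1qa is not shown. Capitals mark matches to the PU.1 motif GAGGAAGT or to the STAT6 motif, TTC and GAA with 4 bases of any kind between them, each searched on both strands, and no match overlapped another.
Retnla, chr16:48842359-48842608, plus strand: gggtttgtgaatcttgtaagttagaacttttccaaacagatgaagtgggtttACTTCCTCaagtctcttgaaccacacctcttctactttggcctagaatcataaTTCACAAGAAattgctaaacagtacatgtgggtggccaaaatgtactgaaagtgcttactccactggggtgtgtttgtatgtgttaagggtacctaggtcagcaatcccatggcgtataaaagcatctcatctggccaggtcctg
C1qc, chr4:136892915-136893164, minus strand: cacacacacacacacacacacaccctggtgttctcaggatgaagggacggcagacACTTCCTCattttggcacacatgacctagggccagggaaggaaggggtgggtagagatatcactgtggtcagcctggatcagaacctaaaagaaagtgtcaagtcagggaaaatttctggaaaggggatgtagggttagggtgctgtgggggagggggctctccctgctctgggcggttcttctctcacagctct
C1qb, chr4:136886201-136886450, minus strand: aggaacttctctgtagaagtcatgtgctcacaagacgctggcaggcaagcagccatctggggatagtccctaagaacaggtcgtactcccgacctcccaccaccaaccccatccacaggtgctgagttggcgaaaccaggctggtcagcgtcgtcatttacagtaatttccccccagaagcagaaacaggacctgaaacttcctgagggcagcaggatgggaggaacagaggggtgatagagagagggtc
The PU.1 letters begin 198 bases before the start in Retnla and 195 bases before it in C1qc, and the STAT6 letters begin 145 bases before the start in Retnla. The window of C1qb holds neither, nor does that of Pld4, another gene lower with Cpd18, whose bases are not shown. Binding of either factor was not tested. Of 32851 RefSeq promoters, 802 (2.44%) hold the PU.1 letters and 1923 (5.85%) the STAT6 letters in this window. Of the 18 macrophage and monocyte markers with a promoter in the table, 3 (C1qc, Pf4 and Retnla) hold the first and 1 (Retnla) the second. The log2 fold change of Pf4 was 0.13.

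The macrophage and monocyte markers had the lowest median among the immune families. Of 28 genes with a probeset, 26 passed the intensity filter, and Itgam and Lyz2 did not. Of the 26, 24 had a fold change below 0, against 54.4% of all genes. The median log2 fold change was −0.70, beside −0.02 over all genes. At an unadjusted p under 0.05, 19 were lower and 0 higher, and in 13 of them the groups did not overlap. Only Retnla was called after adjustment. This list too was written with earlier results of these data known, so its counts are not independent of them. The 17 markers that stand in no other list had the same median, −0.70, with 14 lower at an unadjusted p under 0.05.

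**Figure D2:**
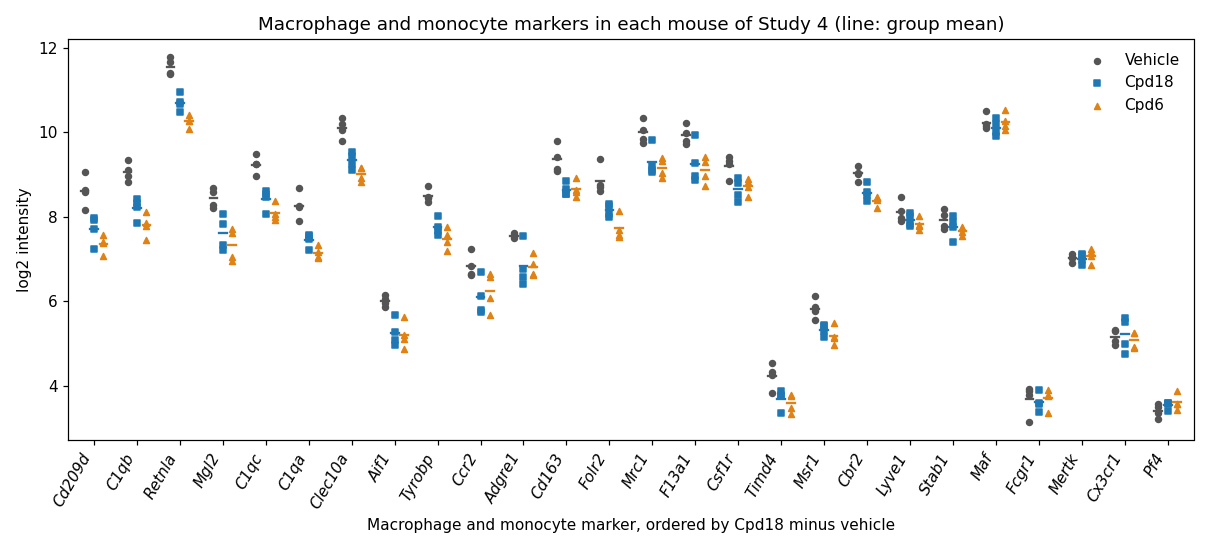
Log2 intensity of the 26 macrophage and monocyte markers in each of the 4 vehicle (circles), 4 Cpd18 (squares) and 4 Cpd6 (triangles) mice of Study 4, ordered by the difference between Cpd18 and vehicle, with lines at the group means. From Cd209d to Cbr2 the Cpd18 means lie 0.45 to 0.90 below the vehicle means, and the last 7 genes lie within 0.19 of them.

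Among the lectin and scavenger receptors of the list, Cd209d, a homologue of the human lectin DC-SIGN, had log2 intensities of 7.91, 7.96, 7.22 and 7.71 in the Cpd18 mice and 8.62, 9.05, 8.15 and 8.59 in the vehicle mice. The groups did not overlap, and the log2 fold change was −0.90 (SE 0.19, limma adjusted p = 0.125). Clec10a, a receptor for galactose-type sugars, measured 9.43, 9.53, 9.09 and 9.25 in the Cpd18 mice and 10.04, 10.34, 9.79 and 10.19 in the vehicle mice. Its groups did not overlap either (−0.76, SE 0.13, limma adjusted p = 0.0655), and Mgl2, the paralogue of Clec10a, gave −0.83. The haemoglobin scavenger receptor Cd163 measured 8.83, 8.65, 8.53 and 8.53 in the Cpd18 mice and 9.42, 9.80, 9.12 and 9.08 in the vehicle mice, with no overlap and a fold change of −0.72 (limma adjusted p = 0.104). The mannose receptor Mrc1 measured 9.81, 9.11, 9.05 and 9.21 in the Cpd18 mice and 9.84, 10.34, 9.75 and 10.06 in the vehicle mice. Here Cpd18 mouse 1 lay within the vehicle range, and the fold change was −0.70 (limma adjusted p = 0.204). The folate receptor Folr2 (−0.71) and the scavenger receptor Msr1 (−0.50) showed no overlap, whereas the phosphatidylserine receptor Timd4 (−0.54) did.

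The 3 chains of C1q, the protein that starts the classical complement cascade, were lower by similar amounts. C1qa measured 7.56, 7.54, 7.21 and 7.46 in the Cpd18 mice and 8.23, 8.67, 7.90 and 8.24 in the vehicle mice. C1qb measured 8.31, 8.42, 7.84 and 8.24 in the Cpd18 mice and 8.96, 9.34, 8.83 and 9.10 in the vehicle mice. C1qc measured 8.60, 8.54, 8.06 and 8.46 in the Cpd18 mice and 9.25, 9.48, 8.95 and 9.24 in the vehicle mice. In each of them all Cpd18 mice lay below all vehicle mice, and Cpd18 mouse 3 was the lowest and vehicle mouse 2 the highest of the 8. The log2 fold changes were −0.81, −0.86 and −0.82, each with a limma adjusted p of 0.0655, which is above the threshold of a call.

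Of the signalling members, the adaptor Tyrobp, through which many activating myeloid receptors signal, measured 7.75, 8.03, 7.56 and 7.65 in the Cpd18 mice and 8.34, 8.73, 8.47 and 8.44 in the vehicle mice. The groups did not overlap (−0.75, SE 0.13, limma adjusted p = 0.0655). Csf1r, the receptor for the macrophage growth factor, measured 8.80, 8.91, 8.51 and 8.35 in the Cpd18 mice and 9.32, 9.41, 8.85 and 9.24 in the vehicle mice. One Cpd18 mouse lay above the lowest vehicle mouse, and the fold change was −0.56 (limma adjusted p = 0.27). Adgre1, which encodes F4/80, the usual mouse macrophage marker, measured 7.55, 6.76, 6.57 and 6.41 in the Cpd18 mice and 7.53, 7.62, 7.55 and 7.48 in the vehicle mice. Cpd18 mouse 1 stood at the vehicle level and the other Cpd18 mice were all lower (−0.73, limma adjusted p = 0.339). Ccr2, the receptor that brings monocytes into tissue, gave −0.75 and the clotting factor subunit F13a1 −0.67, and in both of these too Cpd18 mouse 1 lay above at least 1 vehicle mouse. The actin-binding protein Aif1 (−0.76) and the carbonyl reductase Cbr2 (−0.45) showed no overlap.

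The other 7 markers had an unadjusted p above 0.05. Lyve1 (−0.19) and Stab1 (−0.17), which lymphatic or sinusoidal endothelium also expresses, were among them. So were the transcription factor Maf (−0.12), the efferocytosis receptor Mertk (−0.02), the high-affinity antibody receptor Fcgr1 (−0.07), the fractalkine receptor Cx3cr1 (0.06) and Pf4 (0.13). Not every gene of the list was lower by this measure.

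Averaged over the 26 markers, the level per mouse was 7.56, 7.47, 7.21 and 7.31 with Cpd18 and 7.87, 8.12, 7.82 and 7.90 with vehicle. The 2 groups were separated by 0.26, from the highest Cpd18 mouse to the lowest vehicle mouse. The difference of the means was −0.54, and it was −0.53 without Cpd18 mouse 1 and vehicle mouse 2, the mice low in hair keratins. The vehicle mice of Study 1 ranged from 8.30 to 9.02 and those of Study 2 from 7.87 to 8.93 on the same scale, so most of them lay above the vehicle mice of Study 4. A study and the processing of its arrays cannot be told apart in that comparison.

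**Figure D3:**
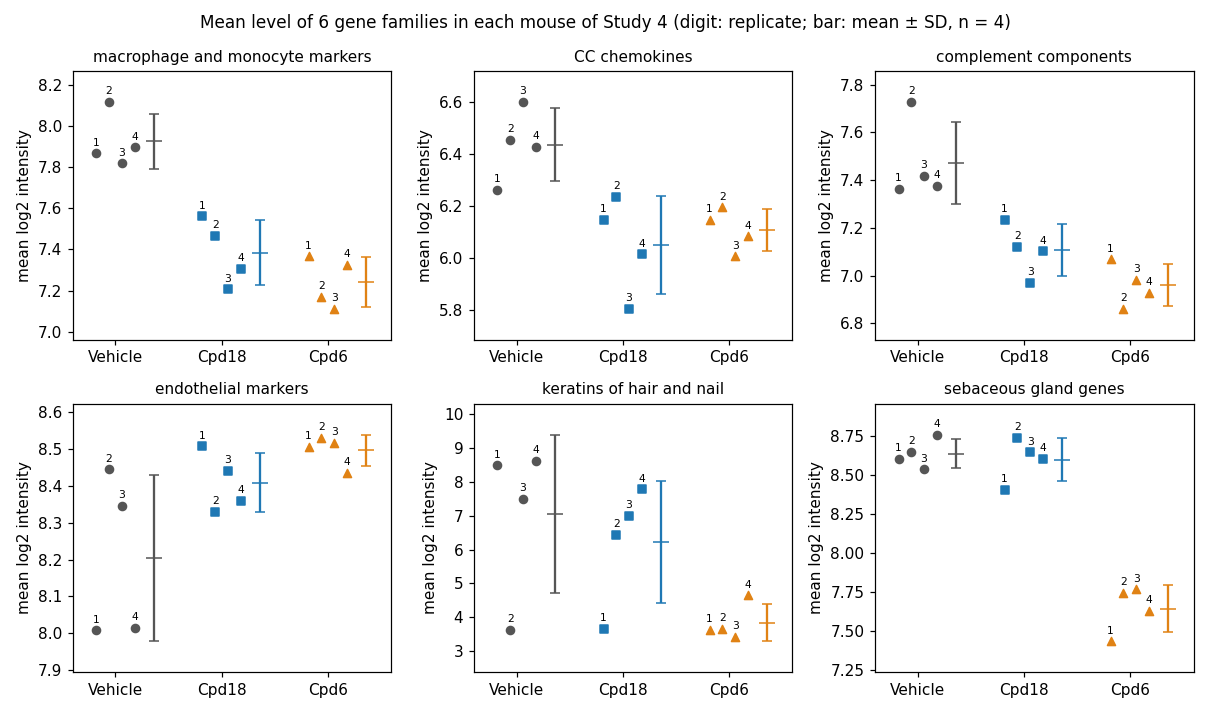
Mean log2 intensity over the genes of 6 families in each mouse of Study 4, with the replicate number beside each point and the mean ± SD of 4 mice beside each group. The macrophage, CC chemokine and complement levels of all 4 Cpd18 mice lie below those of all 4 vehicle mice, the hair keratin levels are low in 1 mouse of each of these groups and in all Cpd6 mice, and the sebaceous gland level is lower with Cpd6 alone.

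The genes outside the list with the smallest p-values on the lower side were Pld4, Cd200r4, Ednrb, Gpr34, Fcgr3, Ccl9, Cd300a, Cyth4 and C3ar1. Pld4, a lysosomal nuclease of macrophages and dendritic cells, measured 7.49, 7.46, 7.21 and 7.51 in the Cpd18 mice and 8.14, 8.46, 8.03 and 8.14 in the vehicle mice. It showed no overlap and was the closest to a call (−0.77, SE 0.11, limma adjusted p = 0.0535). Cd200r4 (−0.80), Gpr34 (−0.89), Cd300a (−0.77) and Cyth4 (−0.67), the first 3 of which are receptors of myeloid cells, each had an adjusted p of 0.0655 and no overlap. A second, dimmer probeset of Cd300a gave 0.09 with overlapping groups, so its probesets disagree. For C3ar1, the receptor of the complement fragment C3a, both probesets were lower without overlap (−0.65 for the brighter and −0.86 for the dimmer one). Ednrb, an endothelin receptor of melanocytes and endothelium and not a myeloid marker, measured 9.21, 8.66, 8.55 and 8.83 in the Cpd18 mice and 9.73, 9.66, 9.55 and 9.68 in the vehicle mice. Its 3 probesets gave −0.84, −0.44 and −0.65, all without overlap.

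The CC chemokines, which attract monocytes, eosinophils and T cells, had a median log2 fold change of −0.42 over 17 genes that passed the filter, and of −0.20 without vehicle mouse 3. Of the 17, 15 were below 0, 8 were lower at an unadjusted p under 0.05, 0 were higher, 6 did not overlap and 0 were called. Ccl8 measured 9.35, 9.88, 8.39 and 9.06 in the Cpd18 mice and 10.13, 10.14, 9.89 and 10.44 in the vehicle mice, and Ccl12 measured 4.77, 5.46, 3.97 and 4.87 in the Cpd18 mice and 5.78, 5.87, 5.51 and 6.29 in the vehicle mice. Both are ligands of monocyte receptors, neither overlapped, and the fold changes were −0.98 (SE 0.25) and −1.09 (SE 0.25), the lowest of the family. Ccl6 measured 7.88, 7.43, 7.40 and 7.49 in the Cpd18 mice and 8.01, 8.79, 8.69 and 8.28 in the vehicle mice, and the brighter probeset of Ccl9 measured 8.08, 7.58, 7.77 and 7.65 in the Cpd18 mice and 8.38, 9.01, 8.98 and 8.45 in the vehicle mice. Both are made by macrophages and other myeloid cells, and they had the smallest p-values of the family (−0.89 and −0.93, limma adjusted p = 0.0933 and 0.0655). Ccl7 (−0.48), Ccl17 (−0.69), Ccl4 (−0.44) and Ccl22 (−0.45) were the other 4 at an unadjusted p under 0.05. Ccl2 (−0.08) and Ccl5 (−0.27) were not lower by that measure. Ccl1, one of the biomarkers of the skin-positive compounds, measured 4.66, 4.78, 4.196 and 4.40 in the Cpd18 mice and 4.33, 4.12, 4.29 and 4.31 in the vehicle mice, with overlapping groups (0.25).

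Of 19 chemokine receptors 7 were lower at an unadjusted p under 0.05 and 0 were called, and 5 of the 19 showed no overlap. Besides Ccr2, those with the smallest p-values were Cxcr3 (−0.63), a receptor of activated T cells, Ccr7 (−0.89), which guides dendritic cells to lymph nodes, Ccr1 (−0.69) and Ccr6 (−0.47), each without overlap. Xcr1 (−0.62), a marker of cross-presenting dendritic cells, and Cxcr6 (−0.37) overlapped.

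The complement family, with the C1q chains among its 15 genes, had 14 genes below 0, 9 lower at an unadjusted p under 0.05, 7 without overlap and 0 called, with a median of −0.30. Besides the C1q chains and C3ar1, these were properdin Cfp (−0.74, limma adjusted p = 0.111), the C5a receptor C5ar1 (−0.62), the protease C1ra (−0.30), the C1 inhibitor Serping1 (−0.15) and C6 (−0.33). Factor B (Cfb, −0.03) and C2 (−0.01), parts of the activating convertases, were near 0. C4b was the 1 gene above 0 (0.25).

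Other receptor families that myeloid cells use also had medians below that of all genes. Of 18 C-type lectins that passed the filter, of 28 with a probeset, 10 were lower at an unadjusted p under 0.05, 7 without overlap, and the median was −0.36, or −0.21 without vehicle mouse 2. Clec7a, the beta-glucan receptor Dectin-1, measured 4.78, 4.45, 4.51 and 4.43 in the Cpd18 mice and 5.16, 5.52, 5.73 and 5.25 in the vehicle mice, without overlap (−0.87). Clec4a1 (−0.56), Clec4a3 (−0.79), Clec4b1 (−0.93), Clec4n (−0.70) and Clec12a (−0.59) did not overlap either. Of 11 Fc receptors, 3 were lower at that threshold, all 3 without overlap: Fcgr3 (−0.75) and Fcgr2b (−0.77), low-affinity receptors for antibody, and their signalling chain Fcer1g (−0.55). Fcgr3 measured 9.72, 9.63, 9.37 and 9.43 in the Cpd18 mice and 10.05, 10.54, 10.18 and 10.40 in the vehicle mice. Of 7 MS4A genes that passed, of 16 with a probeset, 5 were lower at that threshold and 4 did not overlap, with a median of −0.58. Ms4a6d (−0.94) and Ms4a7 (−0.91), known from macrophages, were among them. Of 9 Toll-like receptors 4 were lower, Tlr7 (−0.68), Tlr6 (−0.61), Tlr1 (−0.56) and Tlr11 (−0.54), while Tlr2 (−0.20), Tlr3 (0.13) and Tlr9 (−0.10) were not lower by that measure. Their median was −0.44, and smaller in size without vehicle mouse 2 or Cpd18 mouse 2. Without the filter the medians of the C-type lectins and MS4A genes were smaller in size, as given below.

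The genes of antigen presentation had a median closer to 0. All 9 MHC class II genes that passed the filter had fold changes below 0, with a median of −0.25 and a lowest value of −0.40. The median was −0.15 without Cpd18 mouse 3 and also without vehicle mouse 2. The bright class II chains H2-Aa, H2-Eb1 and H2-Ab1 were the 3 without overlap. H2-Aa measured 11.40, 11.16, 11.08 and 11.07 in the Cpd18 mice and 11.51, 11.65, 11.64 and 11.48 in the vehicle mice (−0.40, limma adjusted p = 0.177). The invariant chain Cd74 (−0.13) and the class II transactivator Ciita (−0.07) overlapped. Of 14 dendritic and Langerhans cell markers 6 were lower at an unadjusted p under 0.05, and 2 did not overlap. The lowest fold change was that of Ccr7 (−0.89), which is counted among the chemokine receptors too. The costimulator Cd86 (−0.48) also did not overlap, and the lectin Cd209a (−0.70) was among the lower genes. Langerin (Cd207, −0.23) and Epcam (0.01), which mark Langerhans cells among other epidermal cells, overlapped. In the mean level of this list the highest Cpd18 mouse, at 6.02, lay below the lowest vehicle mouse, at 6.11. Of 14 cathepsins 4 were lower, among them Ctsc (−0.60) and Ctsl (−0.33), lysosomal proteases, both without overlap.

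Lists of other immune cells also had medians closer to 0 than the macrophage and monocyte markers. Yet several of their mean levels per mouse separated the groups as well, by narrow gaps. The highest Cpd18 and lowest vehicle mouse were 5.89 and 5.91 for T cell, 4.0104 and 4.0111 for B cell, and 6.34 and 6.36 for neutrophil markers. Mast cell levels overlapped. Of 16 T cell markers 5 were lower at an unadjusted p under 0.05 with a median of −0.12, among them the receptor chains Cd3g (−0.39, without overlap) and Cd3d (−0.36). Cd4 (−0.14) and Cd8b1 (0.10) overlapped. Of 9 mast cell markers 2 were lower and 1 higher, with the proteases Cpa3 (−0.48) and Tpsb2 (−0.34) on the lower side and the transcription factor Gata2 (0.35) on the higher side. Of 8 B cell markers 2 were lower, the immunoglobulin joining chain Jchain (−0.81) and Cd79b (−0.34). Of 9 neutrophil markers 3 were lower. One was S100a8, a calcium-binding alarmin of neutrophils, monocytes and stressed keratinocytes, which measured 7.46, 7.62, 7.47 and 8.04 in the Cpd18 mice and 8.80, 8.77, 8.97 and 8.49 in the vehicle mice. It did not overlap and had the lowest fold change of the family (−1.11, limma adjusted p = 0.0701), while its partner S100a9 overlapped (−0.79). All 14 S100 genes measured were below 0, with a median of −0.23, and 2 of them, S100a8 and S100a4 (−0.39), were lower at that threshold. The mean S100 level was lowest in both mice low in hair keratins, at 7.70 in Cpd18 mouse 1 and 7.997 in vehicle mouse 2 against 8.14 to 8.86 in the others, and the part of the hair state in it was not tested. The S100 median was −0.18 without both of these mice, −0.16 without vehicle mouse 1 and −0.11 without Cpd18 mouse 1. The neutrophil granule genes Mpo (0.04), Camp (−0.14) and Ngp (−0.04) had fold changes within 0.14 of 0. Of 14 TNF superfamily ligands 4 were lower, with lymphotoxin alpha (Lta, −0.68) the lowest and without overlap, and of 21 TNF receptors 6 were lower, Cd40 (−0.47) and the decoy receptor Tnfrsf11b (−0.62) among them. Of 8 Siglec and Cd33 genes 3 were lower, Cd33 itself (−0.60) without overlap.

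**Figure D4:**
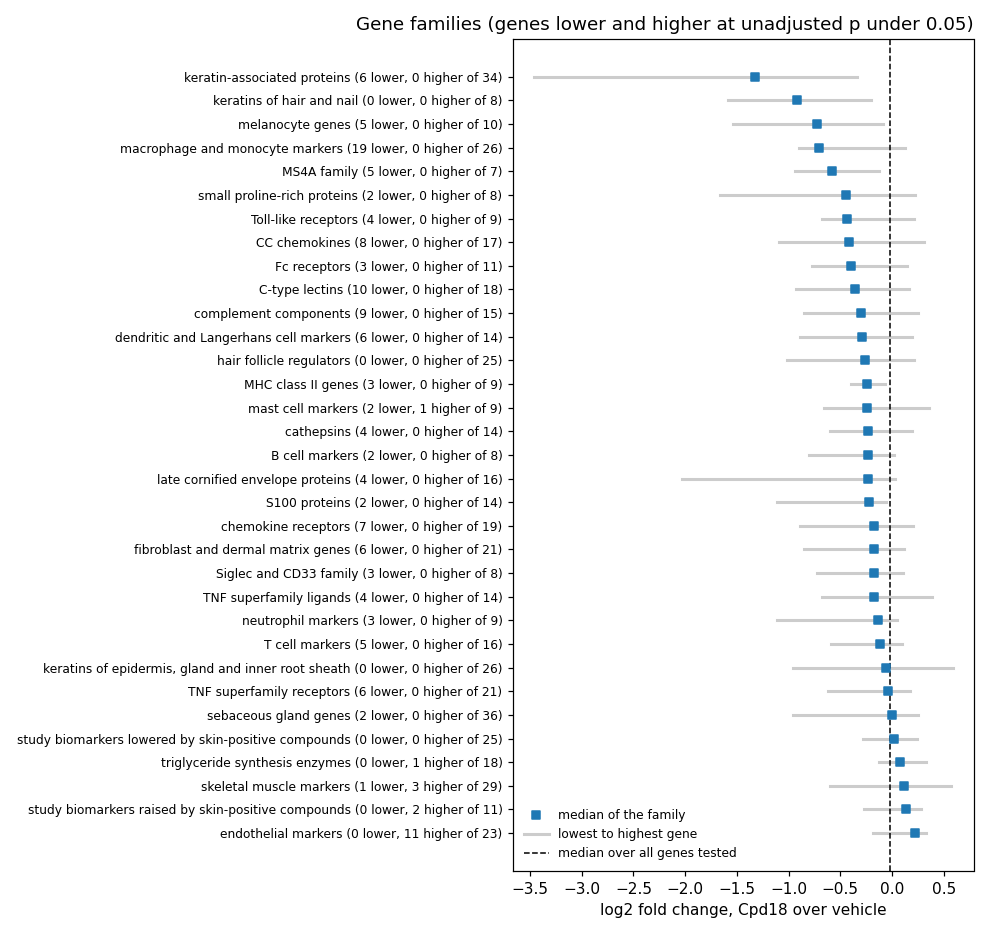
Median log2 fold change of Cpd18 over vehicle (squares) and the range from the lowest to the highest gene (grey lines) for 33 families, with the number of genes lower and higher at an unadjusted p under 0.05 in brackets and the median of all genes as a dashed line. The macrophage and monocyte markers have 19 of 26 genes on the lower side, while the keratin-associated proteins, with the lowest median, have 6 of 34.

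The lowest medians of all belonged to the hair shaft, and they were spread widely between mice. All 34 keratin-associated proteins that passed the filter had fold changes below 0, with a median of −1.32, yet in 0 of them did the groups separate, 6 were lower at an unadjusted p under 0.05 and 0 were called. Their mean level was 2.82, 5.13, 6.60 and 7.74 in the Cpd18 mice and 9.11, 2.84, 7.92 and 8.94 in the vehicle mice. Vehicle mouse 2 was thus as low as the lowest Cpd18 mouse, and the other 3 vehicle mice lay above all Cpd18 mice. The levels of 2.82 and 2.84 lie below the low-intensity filter level of 2.93, so the sizes of these fold changes rest in part on very dim values. The 8 hair and nail keratins gave a median of −0.92, with 0 genes lower at that threshold and a mean level of 3.65, 6.44, 7.002 and 7.78 with Cpd18 and 8.49, 3.63, 7.50 and 8.62 with vehicle. Both medians turned on single mice. That of the hair and nail keratins was 0.10 without Cpd18 mouse 1, −0.34 without vehicle mouse 1, −0.27 without vehicle mouse 4, −1.55 without Cpd18 mouse 4, −2.43 without vehicle mouse 2, and −1.16 without both mice low in hair keratins. That of the keratin-associated proteins was −0.58 without Cpd18 mouse 1, −0.70 without vehicle mouse 1, −0.80 without vehicle mouse 4, −2.80 without vehicle mouse 2, and −1.79 without both. Krtap19-4 (−3.08) was not called with all mice and was called without vehicle mouse 2 and without both. Many keratin-associated proteins are close copies of each other, so a probeset may read several of them and their genes are not separate measurements. The 25 hair follicle regulators, with 19 below 0 and a median of −0.26, and the 26 keratins of epidermis, gland and inner root sheath, with a median of −0.06, held 0 genes at that threshold in either direction. Leaving out 1 mouse, the first median ran from −0.43 (without vehicle mouse 2) to 0.02 (without vehicle mouse 4) and the second from −0.18 to 0.07 (without Cpd18 mouse 1).

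Pigment genes and some genes of the cornified envelope were also spread widely between mice. Of 10 melanocyte genes 5 were lower at an unadjusted p under 0.05 and 0 separated. Tyr, the tyrosinase of pigment synthesis, measured 3.17, 4.53, 3.04 and 4.11 in the Cpd18 mice and 6.04, 3.39, 4.48 and 6.17 in the vehicle mice, with vehicle mice 1 and 4 above all others. Tyrp1 (−1.54) and Dct (−1.16), enzymes of the same pathway, had the same 2 mice highest. Of 8 small proline-rich proteins 2 were lower, Sprr2e (−1.66) and Sprr2d (−1.56), and of 16 late cornified envelope proteins 4 were lower, with Lce3d (−2.03) and Lce3c (−1.08) the lowest. Lce3d measured 2.26, 2.51, 2.68 and 4.22 in the Cpd18 mice and 6.02, 2.37, 5.23 and 6.18 in the vehicle mice, with vehicle mouse 2 again among the Cpd18 mice. All Cpd18 values but 4.22, and that of vehicle mouse 2, lie below the low-intensity filter level of 2.93. Lce3d was called without vehicle mouse 2 and without both mice low in hair keratins. Without both, the median was −0.84 for the melanocyte genes (−0.73 with all mice), −0.96 for the small proline-rich proteins (−0.44) and −0.25 for the late cornified envelope proteins (−0.23). Leaving out 1 mouse, the median of the small proline-rich proteins ran from −1.10 (without vehicle mouse 2) to −0.15 (without vehicle mouse 1), and that of the melanocyte genes was closest to 0, at −0.48, without vehicle mouse 4. The bright members Sprr1a (0.00) and Lce1b (−0.23) were not lower at that threshold. The part of the hair state in these genes was not tested.

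The macrophage shift was set beside the hair shaft values because both were lower with Cpd18 on average. Vehicle mouse 2 had the lowest hair keratin level of the vehicle mice and the highest macrophage level of all 8 mice, 8.12, and Cpd18 mouse 1 had the lowest hair keratin level and the highest macrophage level of the Cpd18 mice, 7.56. The Cpd6 mice, which also enter the fits below, were low in both, with hair keratin levels of 3.41 to 4.64 and macrophage levels of 7.11 to 7.37. With the hair keratin level of each mouse as a covariate, an alternative chosen after the data were seen, limma called 57 probesets (0.198%), 54 of them lower. It called 10 of the 26 macrophage and monocyte markers, against 0.307% of all genes, namely Retnla, Mrc1, Clec10a, C1qa, C1qb, C1qc, Cd209d, Tyrobp, Cd163 and Folr2. Without Cpd18 mouse 1 and vehicle mouse 2, it called 8 probesets, all lower, and Retnla was the 1 macrophage and monocyte marker among them. The other named ones were Ednrb, Idi2, the cysteine protease inhibitor Stfa2, Krtap19-4 and Lce3d, the last 2 of them genes of hair and the cornified envelope. In that setting 20 of the 26 markers were lower at an unadjusted p under 0.05. Both settings were added after the data were seen, and the part of the hair state in the macrophage levels was not tested.

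**Figure D5:**
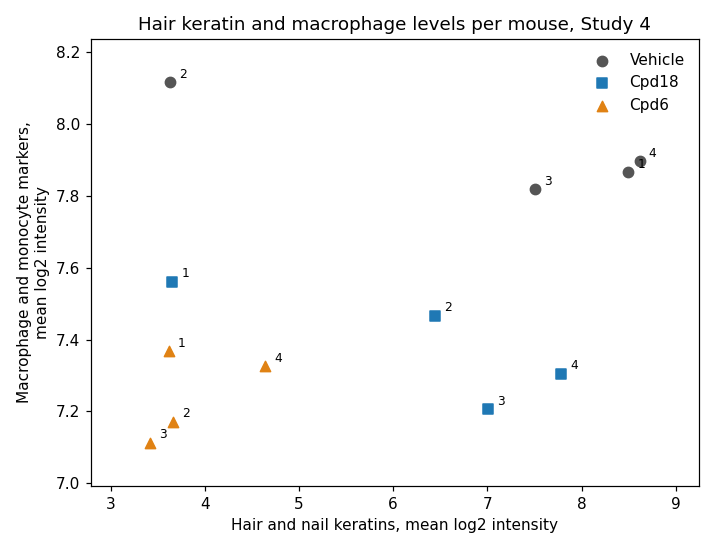
Mean log2 intensity of the macrophage and monocyte markers against that of the hair and nail keratins in each mouse of Study 4, with replicate numbers. Vehicle mouse 2 (hair keratins 3.63, macrophage level 8.12) and Cpd18 mouse 1 (3.65 and 7.56) have the lowest hair keratin levels of their groups. They are 1 mouse of each group, and the part of the hair state in the macrophage levels was not tested.

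On the higher side nothing was called. Mgll, the lipase that splits monoglycerides, measured 10.08, 9.999, 10.21 and 10.09 in the Cpd18 mice and 9.66, 9.79, 9.69 and 9.76 in the vehicle mice at its second brightest probeset, without overlap (0.37, SE 0.07, limma adjusted p = 0.0655). Its brightest probeset gave 0.06 with overlapping groups, so the probesets of Mgll disagree. The same held for Specc1l (0.70 at the dimmer and 0.09 at the brighter probeset) and Eif4e2 (0.49 and, at the brightest, −0.18). Kcna1, a potassium channel of myelinated axons, was higher without overlap at all 3 of its probesets (0.56, 0.57 and 0.37). Its brightest probeset measured 7.90, 7.93, 8.03 and 7.97 in the Cpd18 mice and 7.54, 7.57, 7.34 and 7.12 in the vehicle mice (limma adjusted p = 0.0829). Actn2, the alpha-actinin of muscle (0.40), Camk2b (0.44), the RNA-silencing protein Tnrc6b (0.29), Mllt6 (0.28), Arhgef15 (0.44), Mmp17 (0.56) and Mvb12b (0.47) were higher without overlap and not called. Hk2 was chosen on this side by the same rule, and its values are not given here.

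The endothelial markers were the 1 family with a median at least 0.15 above that of all genes, at 0.22. Of 23 genes 22 were above 0, against 45.6% of all genes, and 11 were higher at an unadjusted p under 0.05, but in 0 of them did the groups separate. Their mean level was 8.51, 8.33, 8.44 and 8.36 with Cpd18 and 8.01, 8.44, 8.35 and 8.01 with vehicle, so that vehicle mice 2 and 3 lay within the Cpd18 range. Pecam1, the adhesion molecule of endothelial junctions, measured 11.08, 10.77, 10.94 and 10.82 in the Cpd18 mice and 10.36, 10.82, 10.83 and 10.46 in the vehicle mice (0.28, limma adjusted p = 0.504). Kdr, the main receptor of vascular growth factor, gave 0.30, and Cdh5, the cadherin of endothelium, 0.33. The 11 genes became 2 without vehicle mouse 1, 1 without vehicle mouse 4, 1 without Cpd18 mouse 1 and 5 without Cpd18 mouse 3. Skeletal muscle markers were low in the same 2 vehicle mice, at 10.53 and 10.65 against 11.16 and 10.90 in the others and 10.79 to 11.05 with Cpd18, and the part of tissue composition in this shift was not tested.

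The dermal matrix list was slightly lower, with 6 of 21 genes at an unadjusted p under 0.05 and a median of −0.18. The fibronectin gene Fn1 (−0.42) and Pi16 (−0.85), a marker of fibroblast progenitors, were the 2 without overlap. In the mean level of the list the highest Cpd18 mouse, at 10.04, lay below the lowest vehicle mouse, at 10.08. The 29 skeletal muscle markers had a median of 0.12, with 3 higher and 1 lower, and of 0.03 without vehicle mouse 1 or 0.21 without vehicle mouse 2.

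Sebaceous gland genes were examined because skin-positive compounds are defined by atrophy of that gland. The 36 sebaceous gland genes had a median log2 fold change of −0.0044, with 2 lower at an unadjusted p under 0.05, Serpinb6d (−0.95) and the desaturase Fads2 (−0.70), and 0 separated. Cpd6 minus Cpd18 had a median of −0.60 over the same genes, and limma called 21 of the 36, against 0.692% of all genes. Scd3, the sebocyte stearoyl-CoA desaturase, measured 10.08, 10.38, 10.36 and 9.91 in the Cpd18 mice and 9.999, 10.29, 10.03 and 10.03 in the vehicle mice. The Cpd18 and vehicle mice overlapped (0.09), and Cpd6 minus Cpd18 was −2.20 (95% confidence interval −2.73 to −1.67, limma adjusted p = 0.000255). The peroxisomal oxidase Acox2 (0.22), the elongase Elovl5 (0.02), the aldehyde oxidase Aox4 (−0.06), the steroid enzyme Hsd17b2 (−0.04), the defensin Defb1 (−0.03) and the chemokine Cxcl16 (0.20) were not called. A list of 32 symbols was written for the biomarkers lowered by skin-positive compounds, and 25 genes were matched by name to a probeset. The paper counts fewer lowered probesets than that, so the unmatched symbols are not a count of biomarkers lost. Of these 25, 0 passed an unadjusted p under 0.05 with Cpd18, and 20 were called between Cpd6 and Cpd18. Of the 11 biomarker genes raised by skin-positive compounds, 8 were above 0 with Cpd18, with a median of 0.13. At that threshold 2 (18.2%) were higher, beside 3.19% of all genes, and 1 of these, the chloride channel Ano1 (0.20), did not overlap. Both biomarker lists come from arrays of Studies 1 and 2, which include mice given Cpd6, and not from the arrays of Study 4. The sebaceous gland list was written with earlier results of these data known. Its overlap with the biomarker lists is not given here, so their counts are not separate evidence.

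The enzymes of triglyceride synthesis, the pathway of the drug target, were near 0 with Cpd18. Of 18 genes 1 was higher at an unadjusted p under 0.05, the acyltransferase Agpat1 (0.20), and the median was 0.08, with values from 0.02 to 0.13 when 1 mouse was left out. Dgat1 measured 10.82, 11.14, 11.10 and 11.01 in the Cpd18 mice and 10.83, 10.91, 10.97 and 10.86 in the vehicle mice. The groups overlapped (0.12, SE 0.08, 95% confidence interval −0.05 to 0.29). Dgat2, the other enzyme of the same step, gave 0.23 (95% confidence interval −0.01 to 0.46). An inhibitor acts on the protein, and these RNA values do not measure it.

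The Cpd6 values of the same study are set beside those of Cpd18 with the same vehicle mice in both, so the 2 comparisons are not independent. Over the 26 macrophage and monocyte markers the median was −0.70 with Cpd18 and −0.72 with Cpd6, and limma called 1 and 18 of them against 0.00653% and 12.2% of all genes. Tested directly, Cpd6 and Cpd18 differed at 0 of the 26 after adjustment and at 5 with an unadjusted p under 0.05, beside 14% of all genes. For Retnla Cpd6 minus Cpd18 was −0.45 (95% confidence interval −0.68 to −0.21, limma adjusted p = 0.113), and for Cd163 0.01 (−0.30 to 0.32). The exposure to each compound is not analysed here.

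With Cpd1, the other skin-negative compound, given in Study 1 with its own vehicle mice (8 each), the median over the 26 markers was −0.06, with 2 past an unadjusted p of 0.05 (16.1% of all genes were) and 0 called (0.47% of all genes were). Retnla was −0.09 with Cpd1, C1qb −0.05, Cd163 −0.27 and Ccl9 0.11. In the test of the difference between both effects over all 48 arrays, 0 of 28789 probesets were called. The smallest limma adjusted p was 0.0928, and 1422 probesets (4.94%) had a p under 0.05 before the adjustment. Of the 26 markers 12 had an unadjusted p under 0.05 in that test, beside 6.01% of all genes. The study and the vehicle mice differ between both compounds, and a difference between them at single genes was not shown after adjustment. The dose may differ too, since the paper's histology gives Cpd1 at a lower dose than 30 mg/kg, the default of its methods. The labels give no dose for either compound.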

How the data were processed

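RNA was hybridised to custom Affymetrix arrays, and the authors used RMA, a method of background correction, normalization and probe summary, to obtain the intensities. Its version is not given in the sources used here, and the deposited values are linear intensities of 38385 probesets. They were set on the log2 scale, and probesets whose mean over the 48 arrays was under the 25th percentile (2.93) were left out, since the absent call of the methods needs probe-level data. Of all probesets 24478 name 1 gene, 65 several and 13842 none in the platform annotation, and 24237 symbols were updated through RefSeq. A linear model (limma 3.58.1, R 4.3.3) was fitted to all 12 arrays of Study 4 with the group as its factor. Variances were moderated with a trend on intensity, and p-values were adjusted by Benjamini-Hochberg over 28789 probesets. The fit was tested on simulated data. An unadjusted p under 0.05 is used to describe families and is not a call.

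Members and lists were chosen with earlier results of these data known. Of 84 gene lists 83 had at least 5 measured genes. Described were those whose median lay 0.15 or more from that of all genes, or with at least 25% of genes at an unadjusted p under 0.05, and the skin lists in any case, 33 in all. The other 50 had medians between −0.15 and 0.11. Named genes were Dgat1, Dgat2, the 8 genes that the paper's text names, the 12 genes per direction with no overlap and the smallest p, and up to 6 members per family with the smallest p, with those its description turns on. The alternatives were other filters, scalings, weights, samples, spread and tests, a replicate block, and leaving out each mouse. The hair keratin covariate, and leaving out both mice low in hair keratins, were added after the data were seen. The number of arrays limits the precision. Summaries used pandas 2.3.3 and numpy 2.4.6 under Python 3.11.15, and plots used matplotlib 3.10.9. Histology is not analysed here.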

Additional observations from a re-analysis of the deposited data

Results flagged for a closer look

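In 8 of 114 groups of 4 mice, 1 mouse stood apart by Dixon's ratio (critical value 0.829), and chance gives about 1 in 20. For Pld4, Cpd18 mouse 3 was the lowest at 7.21, beside 7.46 in the nearest mouse. For Specc1l, vehicle mouse 1 was the highest at 5.42, beside 5.26. For Tnrc6b, vehicle mouse 2 was the highest at 9.66, beside 9.53. The mean level of the complement components was highest in vehicle mouse 2 at 7.73, beside 7.42, and that of the MHC class II genes was highest in the same mouse at 8.85, beside 8.75. The mean level of the T cell markers was highest in vehicle mouse 4 at 5.99, beside 5.92. The mean level of the small proline-rich proteins was highest among the Cpd18 mice in mouse 4 at 7.74, beside 6.51, and lowest among the vehicle mice in mouse 2 at 5.90, beside 7.70.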

How the results depend on the processing

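The number of called probesets was 1 without the filter or with quantile normalization, 2 with array weights and 24 (21 lower, 3 higher) with the 50th percentile filter. It was 0 in 1 fit over all 48 arrays (841 at an unadjusted p under 0.05), with the 8 arrays of both groups alone (1900), with array medians set equal (2329), without the intensity trend (2235) and with the one-way ANOVA (1888, smallest adjusted p 0.44). The threshold of the methods (ANOVA p under 0.01 and fold over 1.2, unadjusted) took 306, 195 of them lower. Retnla had an adjusted p between 0.0579 and 1 in the 5 limma or ANOVA settings with 0 calls, at log2 fold changes of −0.85 or −0.84. The replicate numbers did not pair the mice (correlations of −0.43, −0.13, 0.29 and 0.38 between same-numbered mice), and the replicate block called 11, all lower. Added after the data were seen, the hair keratin covariate called 57 and leaving out both mice low in hair keratins called 8. Leaving out 1 mouse gave 0 (without Cpd18 mouse 3, 1683 at an unadjusted p under 0.05, or 4, with 2444) to 16 calls (without Cpd18 mouse 2), with 6 without vehicle mouse 2, 5 without vehicle mouse 3, and 2 without Cpd18 mouse 1 or vehicle mouse 4. In every setting 22 to 25 macrophage and monocyte markers were below 0 and 18 to 20 lower at an unadjusted p under 0.05, of 26 tested or, with the 50th percentile filter, 23. Leaving out 1 mouse, the CC chemokine median ran from −0.48 to −0.20 (without vehicle mouse 3). Without vehicle mouse 2 the Toll-like receptor median was −0.30, the C-type lectin median −0.21, the MHC class II median −0.15 and the TNF receptor median 0.04. Without Cpd18 mouse 2 the Toll-like receptor median was −0.27, and without Cpd18 mouse 3 the MHC class II median was −0.15. The B cell median was −0.09 without vehicle mouse 1, −0.11 without vehicle mouse 4 and −0.10 with the hair keratin covariate. Without both mice low in hair keratins the Toll-like receptor median was −0.31, the C-type lectin median −0.18, the T cell median −0.23 and the triglyceride enzyme median 0.21. Without the filter the C-type lectin median was −0.14, the MS4A median −0.10 and the cathepsin median −0.14. The cause of these differences was not tested.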
